A study of Mus musculus with 2 samples.

Results

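The kinesin and dynein motors described here were 43 genes chosen by name: kinesin heavy chains with their light chains and adaptor, the subunits of cytoplasmic dynein-1, and 2 subunits of dynactin. All 43 were matched by gene identifier among the 43346 genes of the deposited tables. Total RNA was measured in single forebrains of newborn (postnatal day 0) B6NCrl mice, pup 1 (replicate 1) and pup 3 (replicate 2), with 1 library each. No genotype, allele or treatment is given in the labels, and sex was not collected. The labels name separate pups but give both the same donor identifier, so the spread between them may hold less than the spread between unrelated animals. Both pups formed 1 group, no contrast between conditions existed, and an exact two-sided sign-flip test over 2 animals cannot go below p = 0.5. All results are therefore levels, shares and ratios with their spread over the 2 pups (SD, n = 2).

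Kinesins and cytoplasmic dynein are ATP-driven motors that walk along microtubules. Most kinesins carry vesicles, mitochondria and RNA towards the microtubule plus end, which in axons points to the terminal, and dynein with its cofactor dynactin carries cargo back towards the cell body. In a forebrain at birth, migrating and axon-forming neurons use transport motors, and the remaining dividing progenitors use a separate set of kinesins that build the spindle and complete cytokinesis.

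Sequences are shown because the transcript results turn on them. The first set is the coding end of Klc1, the main kinesin light chain gene (chromosome 12, 111758849 to 111807844, plus strand, mm10), where its transcripts part. The lines give the last 60 coding bases shared by all 4 transcripts above 5% of the gene in lower case and, in capitals, the coding bases that follow, from GENCODE M21. Klc1-204 ends in the same 225 bases as Klc1-201.
Klc1-203: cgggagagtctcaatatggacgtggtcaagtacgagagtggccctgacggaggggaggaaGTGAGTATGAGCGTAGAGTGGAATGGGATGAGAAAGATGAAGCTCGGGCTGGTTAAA
Klc1-202: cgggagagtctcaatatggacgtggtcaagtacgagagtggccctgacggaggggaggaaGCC
Klc1-201: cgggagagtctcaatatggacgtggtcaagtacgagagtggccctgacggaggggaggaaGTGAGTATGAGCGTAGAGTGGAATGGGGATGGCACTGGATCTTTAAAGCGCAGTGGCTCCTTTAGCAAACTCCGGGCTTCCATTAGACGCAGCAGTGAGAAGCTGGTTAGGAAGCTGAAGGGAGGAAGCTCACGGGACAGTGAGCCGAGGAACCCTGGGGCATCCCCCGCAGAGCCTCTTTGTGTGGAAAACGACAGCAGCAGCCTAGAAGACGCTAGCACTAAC

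The next pair is an alternative coding stretch of 60 bases found in both genes for dynein intermediate chains. It lies in Dync1i1 at chr6:5784439-5784498 and in Dync1i2 at chr2:71233649-71233708 (plus strands, mm10). Capitals mark the 60 coding bases that the leading transcript holds and the next most abundant transcript lacks, with 30 coding bases on either side. Position by position, 46 of the 60 capital bases (76.7%) were the same in the 2 genes.
Dync1i1-204: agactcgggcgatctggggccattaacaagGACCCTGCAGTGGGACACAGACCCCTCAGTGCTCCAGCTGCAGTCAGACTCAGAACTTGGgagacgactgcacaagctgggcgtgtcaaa
Dync1i2-207: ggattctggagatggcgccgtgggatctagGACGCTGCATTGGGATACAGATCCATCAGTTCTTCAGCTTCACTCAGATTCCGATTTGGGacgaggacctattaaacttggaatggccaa

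The last set holds promoters of 3 spindle kinesins, shown because the spindle kinesins are described as a group. Each runs from 250 bases before to 50 after the gene's start and comes from RefSeq (GRCm38.p6), written 5′ to 3′ on the gene's strand. Kif22 lies at chr7:127042371-127042670 (minus strand), Kif23 at chr9:61946750-61947049 (minus strand) and Kif4 at chrX:100625815-100626114 (plus strand). Capitals mark TTTGAA, the core of the element known as the cell cycle genes homology region, and CCAAT, on either strand (TTCAAA and ATTGG on the other).
Kif22: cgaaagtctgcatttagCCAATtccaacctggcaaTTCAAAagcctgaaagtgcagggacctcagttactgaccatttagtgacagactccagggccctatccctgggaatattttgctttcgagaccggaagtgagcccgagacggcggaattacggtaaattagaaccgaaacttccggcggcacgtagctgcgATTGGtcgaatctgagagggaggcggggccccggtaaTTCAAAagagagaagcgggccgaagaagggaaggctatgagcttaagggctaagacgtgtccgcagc
Kif23: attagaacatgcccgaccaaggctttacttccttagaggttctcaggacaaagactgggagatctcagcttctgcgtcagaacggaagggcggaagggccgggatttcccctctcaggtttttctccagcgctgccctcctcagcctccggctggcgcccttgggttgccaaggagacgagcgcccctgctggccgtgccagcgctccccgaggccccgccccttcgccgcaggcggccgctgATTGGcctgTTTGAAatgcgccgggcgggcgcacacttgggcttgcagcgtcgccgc
Kif4: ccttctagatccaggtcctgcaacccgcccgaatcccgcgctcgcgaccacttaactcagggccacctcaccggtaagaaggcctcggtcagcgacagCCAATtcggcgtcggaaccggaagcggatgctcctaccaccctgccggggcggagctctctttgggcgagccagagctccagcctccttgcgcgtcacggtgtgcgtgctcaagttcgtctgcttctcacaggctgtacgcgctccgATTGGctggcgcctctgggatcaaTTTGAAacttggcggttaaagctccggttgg

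RefSeq windows were found for 34 of the 43 members, 39 windows in all. TTTGAA was present in 7 of the 8 windows of spindle kinesins (87.5%), in 4 of 31 windows of other members (12.9%) and in 17.9% of all 32851 windows of this length. CCAAT was present in 4 of those 8 windows (50%), in 10 of the 31 (32.3%) and in 37.4% of all windows. In the windows printed, no matches overlapped. Kif18a, which limits chromosome movement at the metaphase plate, had no TTTGAA in its window, and Kif20a had no window in the table. The Kif2c window, counted among the 7 with TTTGAA, lies at chr4:117178723-117179022 (minus strand). That is inside the GENCODE span of Kif2c, which begins at 117182639 on that strand. A match describes the letters of the window.

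At 1 TPM or more in both pups (TPM is the level of a transcript relative to all transcripts, corrected for length), 38 of 43 members (88.4%) were detected, beside 60.7% of protein-coding genes. The member list was chosen with levels of these data known, so the 2 shares do not compare motor genes with other genes. The median level over all members was 16.9 TPM, close to the 17.0 TPM of detected protein-coding genes. Of the members, 24 reached 10 TPM and 10 reached 100 TPM in both pups. Together they summed to 3176 TPM in pup 1 and 2580 TPM in pup 3, and took 0.600% and 0.537% of all gene counts. The libraries held 40066386 and 40431595 expected counts, and single members held 62 to 29863 in pup 1 and 62 to 29984 in pup 3. Forebrain genes were detected (6 of 6, summed 259 and 226 TPM), and none of 6 midbrain and hindbrain genes was (summed 0.17 and 0.05 TPM, 3 listed at 0).

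**Figure D1:**
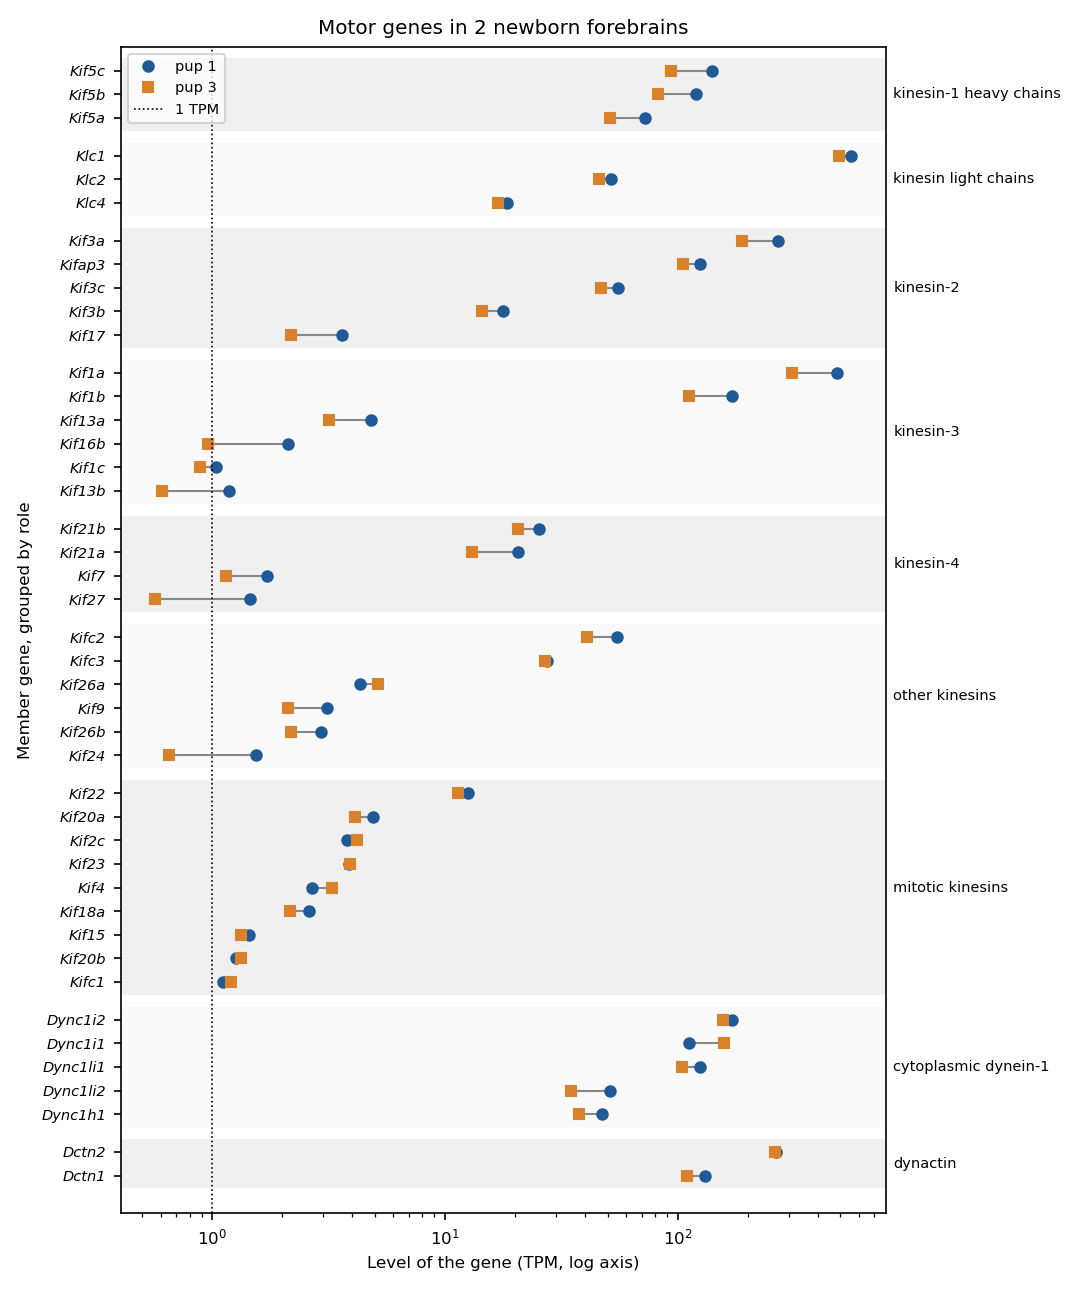
Level of each of the 43 members in TPM (log axis), with a circle for pup 1 and a square for pup 3, grouped by role; the dotted line marks 1 TPM. Klc1 and Kif1a stand highest, the spindle kinesins lie between 1.11 and 12.55 TPM, and most squares lie left of their circles.

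Klc1 was the most abundant motor gene, at 555 TPM in pup 1 and 492 TPM in pup 3 (524 ± 44.5), above 98.1% of detected protein-coding genes. Light chains bind the tails of kinesin-1 heavy chains and couple them to cargo. Klc2 stood at 51.6 and 46.1 TPM. Klc4 stood at 18.5 and 16.9 TPM. The order Klc1, Klc2, Klc4 was the same in both pups and the groups of values did not overlap. Klc1 supplied 88.8% and 88.7% of light chain TPM, and its log2 ratio over Klc2 was 3.42 ± 0.0097, the steadiest of the 22 ratios computed.

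All 3 kinesin-1 heavy chains were abundant. Kif5c, one of the neuron-enriched copies, stood at 141 and 93.5 TPM. Kif5b, the copy found in most tissues, stood at 120 and 82.0 TPM. Kif5a, also neuron-enriched, stood at 72.3 and 51.2 TPM. All of them were lower in pup 3, and their shares of the heavy chain sum were close in the 2 pups: Kif5c took 42.3% and 41.2%, and Kif5b took 36.0% and 36.2%. The log2 ratio of Kif5c over Kif5a was 0.91 ± 0.069 and that of Kif5c over Kif5b was 0.21 ± 0.031. Summed light chains stood at 1.87 times the summed heavy chains in pup 1 and 2.45 times in pup 3 (2.16 ± 0.406).

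The place of Kif5b in this order depended on a short transcript. Kif5b-202, 2006 bases long and annotated with an incomplete coding end, held 59.2% and 60.1% of the gene's TPM, and all of its bases lie within exons of Kif5b-201, the transcript of 6032 bases. It held 3375 and 2644 expected counts against 6254 and 4790 for Kif5b-201, so the longer form had more reads and fewer TPM. Long transcripts were those of at least 50% of the length of the gene's longest coding transcript, coding or not. With these alone, Kif5b stood at 42.4 and 28.7 TPM. Kif5a over Kif5b then turned from a log2 ratio of -0.70 ± 0.038 to 0.80, and Kif5c held 54.5% of heavy chains. Kif5a and Kif5c were nearly free of this: Kif5a has a single transcript and Kif5c-201 held 99.9% and 99.8% of its gene.

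Among kinesin-2 genes, whose heterotrimer of Kif3a, Kif3b and the adaptor Kifap3 drives transport in cilia and axons, Kif3a was highest at 271 and 189 TPM. Kifap3 stood at 125 and 106 TPM. Kif3c, an alternative partner of Kif3a, stood at 55.6 and 47.0 TPM. Kif3b stood at 17.9 and 14.5 TPM and Kif17, a kinesin-2 that works without Kif3a, at 3.61 and 2.18 TPM. Kif3c exceeded Kif3b in both pups, with a log2 ratio of 1.66 ± 0.040. Of the 50-base words in Kif3c transcripts, 39.6% also occur in other genes, mainly the antisense gene 1110002L01Rik (10.3 and 9.03 TPM), and reads of the 2 cannot be told apart if strand was not used.

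Kif3a stood at 3.69 times the sum of its partners Kif3b and Kif3c in pup 1 and at 3.08 times in pup 3. Its leading transcript was Kif3a-206, of 770 bases and annotated to nonsense-mediated decay, with 33.4% and 31.1%. With long transcripts alone Kif3a stood at 138 and 101 TPM, or 1.88 and 1.65 times its partners. Kifap3 was then 0.907 and 1.04 times Kif3a, against 0.463 and 0.558 times by gene level. The log2 ratio of Kif3a over Kifap3 moved from 0.98 ± 0.19 to 0.04 and no longer exceeded 3 SD.

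The kinesin-3 genes ranged widely. Kif1a, the main carrier of synaptic vesicle precursors, stood at 482 and 310 TPM (396 ± 121), the second of all members. Kif1b, a carrier of mitochondria and synaptic vesicle precursors through its 2 forms, stood at 171 and 112 TPM. Kif13a, which carries mannose-6-phosphate receptors, stood at 4.82 and 3.17 TPM. The other 3 lay near the detection limit: Kif16b, an early endosome motor, at 2.11 and 0.96 TPM, Kif1c at 1.04 and 0.89 TPM, and Kif13b at 1.18 and 0.61 TPM. The log2 ratio of Kif1a over Kif1b was 1.48 ± 0.020.

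Most of the Kif1a and Kif1b signal in TPM came from short annotated transcripts. Kif1a-206, of 528 bases with an incomplete coding end, held 50.6% and 52.2% of Kif1a, and Kif1a-208, of 570 bases and not coding, held 25.7% and 23.6%. The transcript of 8206 bases, Kif1a-204, held 12.6% and 14.7% of the TPM, though its 12250 and 10409 expected counts were above the 2603 and 1954 of Kif1a-206. In Kif1b, the retained-intron transcript Kif1b-205 of 587 bases held 45.4% and 48.0%. Kif1b-203, the form of 10233 bases, held 37.5% and 39.9%, and Kif1b-201, of 6991 bases, held 1.5% in each pup. With long transcripts alone Kif1a stood at 114 and 75.0 TPM, rank 10 of the members, Kif1b at 66.8 and 46.6 TPM, and their log2 ratio was 0.73.

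**Figure D2:**
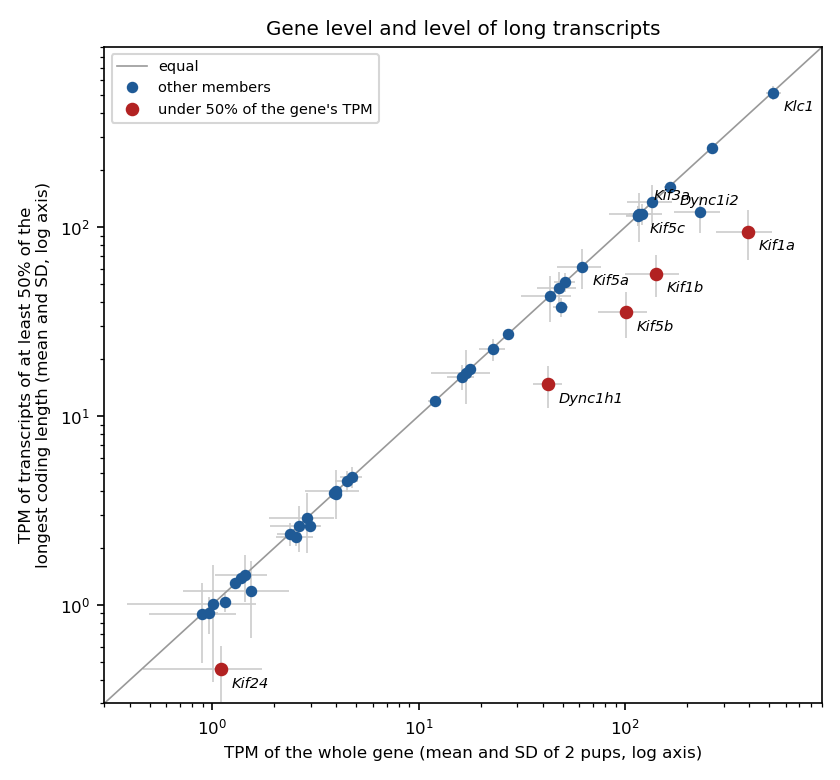
Mean TPM of long transcripts (vertical) against mean TPM of the whole gene (horizontal) for the 43 members, both on log axes, with bars of 1 SD over 2 pups. Red marks the 5 members in which long transcripts held under 50% of the gene's TPM (Kif1a, Kif1b, Kif5b, Dync1h1 and Kif24). Within 1% of the line of equality lie 27 members, of which 15 have a single annotated transcript and lie on it by construction.

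The kinesin-4 genes included Kif21b and Kif21a, regulators of microtubule growth in neurons. Kif21b stood at 25.4 and 20.6 TPM and Kif21a at 20.7 and 13.1 TPM, and their log2 ratio did not exceed 3 SD. Kif7, a component of Hedgehog signalling at the cilium tip, stood at 1.72 and 1.15 TPM. Its paralog Kif27 stood at 1.45 and 0.57 TPM. Kif21b was led by Kif21b-204 (59.0% and 54.6%), a transcript of 9254 bases annotated to nonsense-mediated decay, 98.1% of whose bases lie in exons of the coding form Kif21b-201. Kif21b-201 itself held 9.68 and 9.18 TPM, below Kif21a, which had no share in noncoding transcripts. The order of Kif21b and Kif21a thus depended on counting Kif21b-204. The sums over long transcripts keep Kif21b-204, since they go by length alone.

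Among the remaining kinesins, Kifc2, a C-terminal motor of neurons, stood at 55.1 and 40.6 TPM. Kifc3, a related minus-end motor, stood at 27.5 and 26.9 TPM. Kif26a and Kif26b, kinesins whose motor domain lacks ATPase activity, stood at 4.33 and 5.16 TPM and at 2.93 and 2.19 TPM. The ratios of Kifc2 over Kifc3 and of Kif26a over Kif26b kept their sign in both pups but did not exceed 3 SD. Kif9, a kinesin of motile cilia, stood at 3.13 and 2.11 TPM and Kif24, a centriole kinesin that restrains cilium formation, at 1.55 and 0.65 TPM. The 8 markers of ependymal and motile-cilia cells were all detected and summed to 105 and 82.3 TPM. In bulk tissue, fewer cells of a type and less RNA per cell cannot be told apart.

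All 9 spindle and cytokinesis kinesins (mitotic kinesins in the plots) were detected at low levels, 34.3 TPM summed in pup 1 and 32.8 TPM in pup 3, or 1.08% and 1.27% of the members' TPM. Kif22, a chromosome-arm motor, was highest at 12.6 and 11.4 TPM. Kif20a, a cytokinesis motor, stood at 4.92 and 4.11 TPM. Kif2c, a microtubule depolymerase of the centromere, stood at 3.81 and 4.18 TPM. The values of Kif22 overlapped with those of none of the other 8 genes.

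Kif23, the motor of the centralspindlin complex, stood at 3.87 and 3.93 TPM. Kif4, a chromosome motor of the central spindle, stood at 2.68 and 3.26 TPM and Kif18a at 2.61 and 2.15 TPM. Kif15, a spindle motor, stood at 1.44 and 1.33 TPM, Kif20b, a cytokinesis motor, at 1.26 and 1.33 TPM, and Kifc1, a minus-end motor of the spindle poles, at 1.11 and 1.20 TPM. The last 3 lay close to the detection limit. Kif20a shares 25.2% of its 50-base words with Cdc23 on the other strand (72.9 and 61.9 TPM), Kif4 shares 14.2% with Pdzd11 on the other strand (70.1 and 69.7 TPM), and Kifc1 shares 38.6% with its near copy Kifc5b (0.45 and 0.35 TPM), so these 3 levels are uncertain.

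Cytoplasmic dynein-1 is built on a pair of heavy chains with intermediate, light intermediate and light chains. Dync1h1, the heavy chain and motor, stood at 47.4 and 37.8 TPM. The intermediate chains, which bind dynactin, stood higher: Dync1i2, found in most tissues, at 171 and 157 TPM, and Dync1i1, enriched in neurons, at 112 and 159 TPM. Dync1i1 supplied 39.6% of intermediate chain TPM in pup 1 and 50.2% in pup 3, so the order of the 2 genes was not fixed (log2 ratio of Dync1i2 over Dync1i1 0.61 in pup 1 and -0.01 in pup 3). The light intermediate chains, which bind cargo adaptors, were led by Dync1li1 at 125 and 105 TPM over Dync1li2 at 51.4 and 34.8 TPM, with a log2 ratio of 1.44 ± 0.22.

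Transcript levels of the dynein subunits were far from equal. Intermediate chains stood at 5.99 and 8.37 times Dync1h1, and light intermediate chains at 3.73 and 3.70 times. The heavy chain gene (chromosome 12, 110601452 to 110666945, plus strand, mm10) was led by Dync1h1-204, a retained-intron transcript of 427 bases, with 52.2% and 56.6% of TPM from 202 and 197 expected counts. The complete form Dync1h1-201, of 14342 bases, held 36.5% and 32.0% from 6126 and 4836 counts. With long transcripts alone Dync1h1 stood at 17.3 and 12.1 TPM, and intermediate chains at 16.4 and 26.2 times it.

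Both dynactin genes were abundant. Dctn2, the dynamitin subunit of the shoulder, stood at 264 and 262 TPM, the third of all members. Dctn1, the large subunit that binds microtubules and intermediate chains, stood at 131 and 109 TPM. Dctn2 exceeded Dctn1 in both pups with a log2 ratio of 1.13 ± 0.18, and Dync1h1 lay below Dctn1 at -1.50 ± 0.045, or -3.01 with long transcripts.

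Of the 22 ratios between paralogs or partner subunits, 17 exceeded 3 SD over the pups with the same sign in both. The other 5 were Kif21a over Kif21b, Kif7 over Kif27, Kif26a over Kif26b, Kifc2 over Kifc3 and Dync1i2 over Dync1i1. The rule was applied to these 22 chosen pairs alone, so no share over other gene pairs stands beside the 17. Other wide ratios were Kif1b over Kif1c (7.03 ± 0.29), Kif3a over Kif17 (6.28 ± 0.13), Kifc2 over Kifc1 (5.24 ± 0.38) and Kif3a over Kif3b (3.81 ± 0.15).

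**Figure D3:**
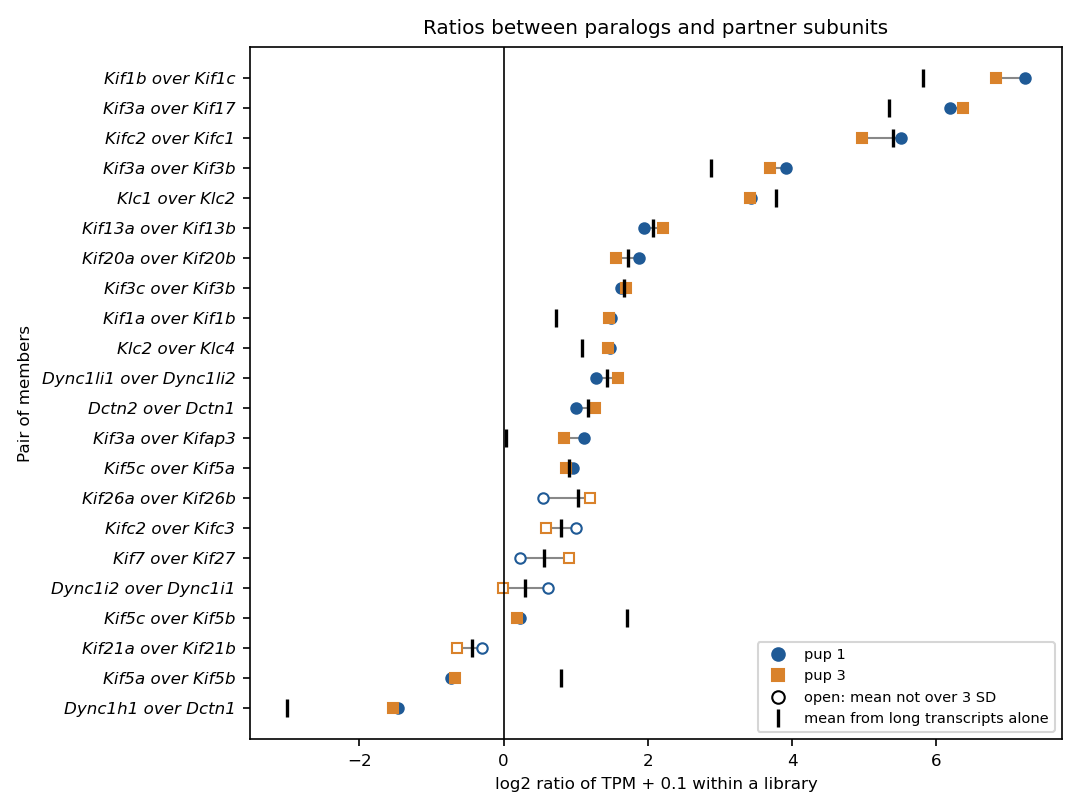
Log2 ratio of TPM + 0.1 within each library for the 22 pairs, with circles for pup 1, squares for pup 3 and a bar for the mean from long transcripts alone; open symbols mark the 5 pairs whose mean did not exceed 3 SD. The bars lie far from the symbols for the pairs with Kif5b, Kif1a, Kif1b, Kif3a or Dync1h1.

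Transcript choice was similar in the 2 pups. The 43 members had 184 annotated transcripts, and 28 members had more than 1. Of the 25 such members that were detected, 24 (96%) were led by 1 and the same transcript in both pups, beside 91.4% of 9076 detected protein-coding genes. The exception was Kif7, at gene counts of 189 and 144. There Kif7-202 held 66.3% in pup 1 and 0% in pup 3, and Kif7-203 held 0% and 58.0%. By posterior mean TPM, Kif7-202 held 30.8% and 24.9% and Kif7-203 held 30.4% and 41.6%. The 0% values thus depended on the estimate used. A transcript under 50% of the longest coding length led 5 of the 25 (20%), Kif1a, Kif1b, Kif3a, Kif5b and Dync1h1, beside 13.8% of those genes. A transcript not annotated as coding led 4 (16%), Kif1b, Kif3a, Kif21b and Dync1h1, beside 8.76%.

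**Figure D4:**
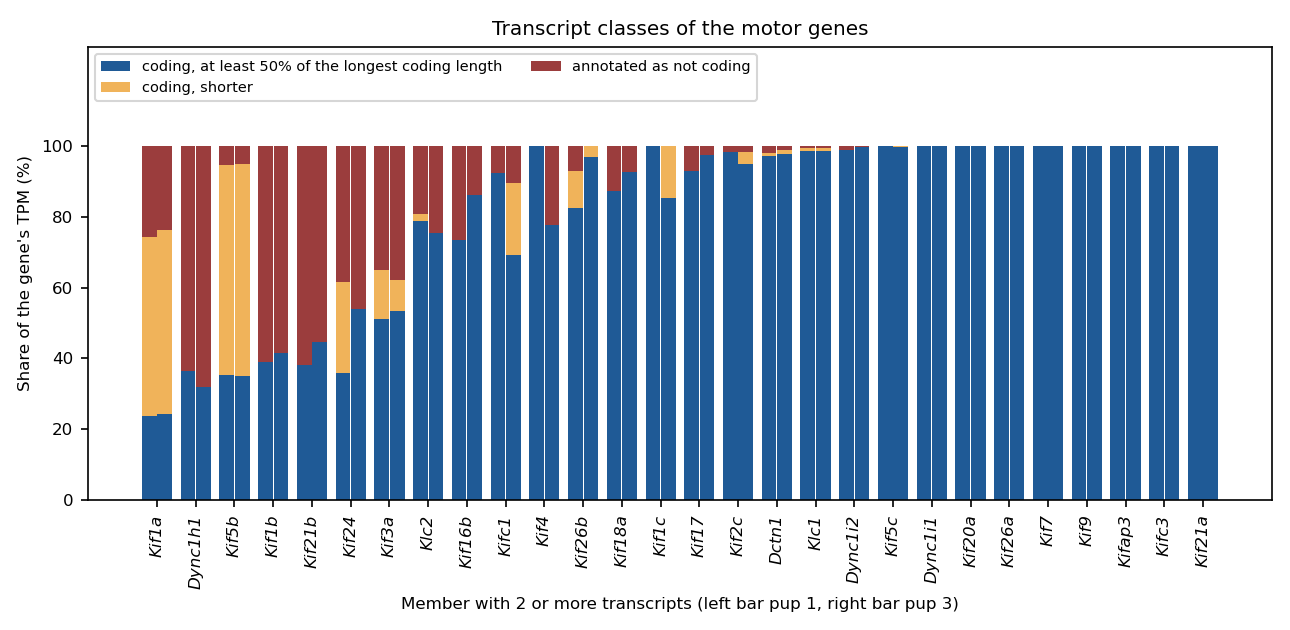
Share of each gene's TPM in long coding, shorter coding and noncoding transcripts for the 28 members with 2 or more transcripts, with pup 1 as the left bar and pup 3 as the right bar. Kif1a, Dync1h1, Kif5b, Kif1b and Kif21b hold under 50% in long coding transcripts in both pups, and bars of the same gene are close in height for the abundant members.

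The Klc1 ends printed above were used unequally. Klc1-203, with 57 bases after the shared part, held 46.1% and 49.6%. Klc1-202, with 3 bases, held 38.4% and 34.3%. Klc1-201 and Klc1-204, with the 225-base end, together held 14.1% and 14.7% (14.4% ± 0.396). The order of the 3 ends was the same in both pups. The counts behind them were large, from 1703 and 1615 for Klc1-204 to 13759 and 14864 for Klc1-203.

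The 60-base stretch of the intermediate chains was mostly included. Of Dync1i1 transcripts that span the site, 86.0% and 79.0% of TPM held it (82.5% ± 4.90). In Dync1i2 the shares were 78.9% and 75.9% (77.4% ± 2.12). The ranges of the 2 genes met at the border (79.0% and 78.9%), so at 2 animals they cannot be ranked firmly.

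Between the pups, 34 of 41 tested members (82.9%) were lower in pup 3, beside 80.4% of all 14985 genes tested, and the median log2 ratio of pup 3 over pup 1 was -0.27 for members and for all genes. A member was called where its mean TPM was 1 or more, the ratio of TPM + 0.1 was 2-fold or more and the deposited TPM intervals did not overlap. This held for 2 of 41 members (4.88%), beside 3.97% of all genes, and both were lower in pup 3 (3.84% of all genes lower, 0.127% higher). They were Kif27, with intervals of 1.20 to 1.65 and 0.44 to 0.70 TPM and a log2 ratio of -1.21, and Kif16b, with intervals of 1.65 to 2.54 and 0.77 to 1.27 TPM and -1.06. Neither was called once the shift of all genes was removed (0 of 41 under TMM, median centring or DESeq2 size factors). With long transcripts alone Kif16b had a log2 ratio of -0.84, under 2-fold, and Kif27, with a single transcript, kept -1.21. Kif24 had a log2 ratio of -1.14 with overlapping intervals of 1.39 to 2.66 and 0.67 to 1.44 TPM.

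The median log2 ratios of the role groups, with no test of a difference between groups, were -0.62 for kinesin-3, -0.60 for kinesin-4, -0.55 for kinesin-1 heavy chains, -0.30 for kinesin-2, -0.25 for dynein, -0.16 for light chains and -0.14 for dynactin, and 0.02 for the spindle kinesins. All 3 kinesin-1 heavy chains lay below the median of all genes and all 3 light chains above it. After a fit on length and level across genes, this contrast was not kept: group medians were 0.01 for heavy chains (Kif5a 0.06, Kif5b -0.21, Kif5c 0.01) and 0.10 for light chains. The median of the spindle kinesins after that fit was 0.46. Of the 9 spindle kinesins, 8 lay above the median of all genes and 5 were higher in pup 3, led by Kif4 (0.27), but none was called. With long transcripts alone 6 of the 9 were lower in pup 3, since Kif4 then stood at 2.68 and 2.53 TPM and Kifc1 at 1.11 and 0.95 TPM. The highest ratio of any member was that of Dync1i1 (0.50).

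Gene length and markers of cell types can be set beside these ratios. Across the genes tested, longer genes had lower ratios (Spearman's rho -0.443 between effective length and log2 ratio, over genes that share the 2 libraries), and the median effective length was 3466 bases for members and 2230 bases for all genes. The 12 markers of dividing cells were all detected, summed to 159 and 151 TPM and had a median log2 ratio of -0.17, with 9 lower in pup 3. The 7 neuron markers summed to 4136 and 3493 TPM, had a median of -0.55 and were all lower in pup 3. Markers of radial glia and astrocytes (median -0.44), the oligodendrocyte lineage (-0.40) and ependymal cells (-0.36) also had lower medians than all genes. Of the 7 radial glia and astrocyte markers 6 were lower in pup 3. Their sum was higher (2671 and 2741 TPM), with Fabp7, the highest of them, at 2258 and 2433 TPM. Markers of microglia (-0.14) and endothelium (-0.11) did not have lower medians than all genes. Erythroid markers were higher in pup 3 (summed 961 and 1445 TPM, median 0.50). The part of these cell types in the members' ratios was not tested.

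**Figure D5:**
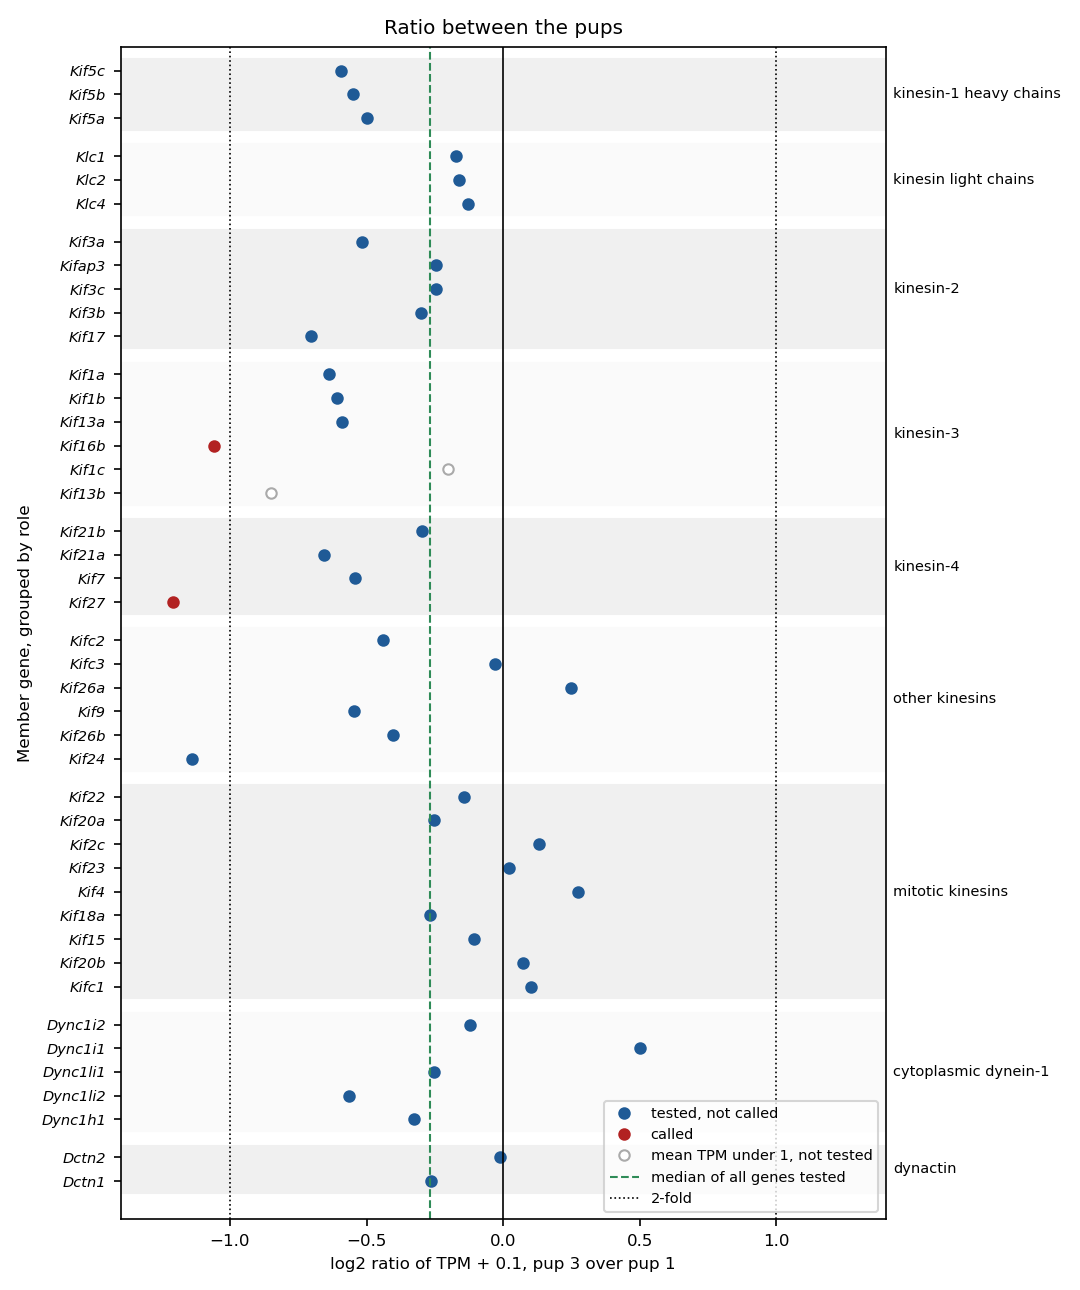
Log2 ratio of TPM + 0.1, pup 3 over pup 1, for each member by role; red points were called, grey open points had a mean TPM under 1, the dashed line is the median of all genes tested (-0.27) and dotted lines mark 2-fold. Kif16b and Kif27 are the called members, and 8 of 9 spindle kinesins lie right of the dashed line.

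The partners of these motors were mostly abundant, apart from the dynein regulators. The regulators' median was close to the 17.0 TPM of detected protein-coding genes. All 9 dynein light chain genes were detected (median 178 TPM, highest Dynll1 at 1101 TPM), as were all 10 further dynactin genes (median 177 TPM, highest Dctn3 at 346 TPM). All 17 kinesin cargo adaptors were detected (median 54.7 TPM), with Fez1, an adaptor of kinesin-1, highest at 546 TPM. Of 15 dynein regulators, 13 were detected (median 16.9 TPM), with Nudc highest at 205 TPM and Bicdl2 lowest at 0.065 TPM. Of the 50 genes of these 4 lists that were tested, none was called higher in pup 3 (0.127% of all genes) and 1 was called lower (3.84% of all genes), the dynein adaptor Bicd1 (23.5 and 10.3 TPM, log2 ratio -1.18). With the median of all genes removed, 0 of the 50 were called.

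Of 12 further kinesin genes, 5 were detected, with Kif2a, a microtubule depolymerase, highest at 52.0 TPM and Kif2b listed at 0. The same list held Kif1bp, which encodes a binding protein of kinesins and not a motor, at 62.1 TPM, and the light chain gene Klc3 at 2.17 TPM. All 5 cytoplasmic dynein-2 genes, which serve retrograde transport in cilia, were detected (median 35.1 TPM, highest Wdr34 at 63.4 TPM). Of 15 axonemal dynein genes, which drive the beating of motile cilia, 7 were detected (median 0.985 TPM, highest Dnah7a). Of the 19 genes of these 3 lists that were tested, none was called higher in pup 3 (0.127% of all genes). Called lower were 2 of the 19 (3.84% of all genes), Stard9 (log2 ratio -1.15) and Dync2h1 (-1.03). With the median of all genes removed, 0 of the 19 were called.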

How the data were processed

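Forebrain total RNA of 2 pups was measured, 1 library each. Per the labels' protocols, RNA longer than 200 nt was extracted with mirVana, 10 ng entered each library, spike-in RNAs were added and a SMARTer low-input kit manual is linked. The authors deposited expected counts, TPM, posterior mean TPM, TPM intervals and the percent of each gene's TPM held by each transcript, on mm10 with GENCODE M4 per the file headers and notes. The aligner, the quantifier, use of strand and the probability level of the intervals were not given in the sources used here.

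Gene names, biotypes and coordinates came from GENCODE M21, which named 42462 of the 43346 genes. All 43 members were named in the text; of further lists, the 2 highest genes and the lowest could be named, as could overlapping genes, near copies and leading transcripts. Bicd1, Stard9, Dync2h1 and Klc3 were named after their values were seen. Ratios used TPM + 0.1 and were held against 3 SD over the pups. Expected counts were rounded for the scaling factors of edgeR 4.0.16 (TMM) and DESeq2 1.42.0, the only use of these tools (R 4.3.3). Other work used Python 3.11.15, pandas 2.3.3 and numpy 2.4.6. Some short transcripts held a large share of a gene's TPM with fewer counts than its longest coding form. Levels were therefore also summed over transcripts, coding or not, of at least 50% of the longest coding length. This alternative was chosen after seeing the data. Members and lists were chosen with earlier results of these data known. The ratio procedure was tested on simulated counts with Poisson (counting) noise alone and no shift between libraries. That test does not cover the shift of all genes or the trend with length seen here. Proteins were not analysed here.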

Additional observations from a re-analysis of the deposited data

How the results depend on the processing

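The 2 pups limit every spread, and counts as low as 62 limit the ratios of the lowest members. The median member level was 20.2 TPM when TPM was rescaled to nuclear protein-coding genes, and 24 members were detected at 5 TPM. With long transcripts alone and with expected counts not divided by length, respectively, Kif5c took 54.5% and 52.5% of heavy chains, light over heavy chains was 2.74 and 0.881, Kif3a over Kif3b plus Kif3c was 1.76 and 0.868, and intermediate chains over Dync1h1 were 21.3 and 3.55. Spindle kinesins took 1.46% of the members' TPM with long transcripts.

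The count of members called between pups was 0 with a pseudocount of 1, TMM, DESeq2 size factors or median centring. It was also 0 with a fit on length and level or with posterior mean TPM. At 1.5-fold it was 8 of the 41 members tested, beside 2536 of all 14985 genes tested (16.9%). Log2 ratios that reversed were Kif5a over Kif5b (0.23 with counts, 0.80 with long transcripts), Kif3a over Kifap3 (-0.24 with counts) and Dync1i2 over Dync1i1 (-0.011 without replicate 1 and 0.61 without replicate 2). TMM and DESeq2 moved all ratios by 0.29 and 0.30. Counts of leading transcripts kept within 1.5 times under each alternative run. No paired analysis was possible because both pups belong to 1 group.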
